A study of Mus musculus with 9 samples.

Results

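The ATP-binding cassette (ABC) transporters are the genes whose symbols in the deposited tables consist of Abc, a subfamily letter from a to g, a number and sometimes a further letter. That rule, which uses no measured value, found 50 of the 28932 genes with a gene ID. Of these 50 members, 30 passed the filter on low counts and were tested among 12374 genes, 13 had between 2 and 52 counts in all libraries together, and 7 were listed at 0 throughout.

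Transcript levels were measured by RNA sequencing of total RNA from mouse hepatoma cells, a line derived from a liver tumour, that the labels call both Hepa 1 WT and HC1C. In 3 libraries the cells had received 10 nM FICZ, which arises from tryptophan in light and is a ligand of the aryl hydrocarbon receptor (AhR), a transcription factor that responds to small molecules. In 3 libraries they had received 50 uM tryptamine, a monoamine made from tryptophan that the series title calls a proligand of the AhR. The 3 control libraries are described in the labels once as untreated and once as given vehicle, and every group was taken at 6 h.

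ABC proteins bind and hydrolyse ATP, and most of them use it to move substrates across a membrane. In hepatocytes, members of subfamilies B, C and G export bile acids, phospholipids, sterols, conjugated waste products and drugs into bile or blood, while subfamily A carries lipids, and subfamily D and part of subfamily B work inside peroxisomes, lysosomes and mitochondria. Subfamilies E and F have no membrane domain and act on ribosomes. ABCG2 is known as an AhR-responsive gene in human cells, and Abcc2, Abcc3 and Abcc4 are known in mouse liver as genes that respond to the stress-activated factor NRF2.

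The libraries held 11594795 to 16715843 counts over genes. Cyp1a1, a cytochrome P450 whose gene is a direct AhR target, stood at 1022, 1035 and 951 CPM (counts scaled to library size) in the FICZ libraries, at 674, 682 and 754 CPM in the tryptamine libraries, and at 63.9, 55.4 and 58.3 CPM in the control libraries, and all treated libraries lay far above all control libraries. Of 10 hepatocyte and hepatoma markers, Alb, Afp and Trf were well detected, and Apoa1, Ttr, Hnf4a and Ahsg were listed at 0. The summed level of these 10 markers was 772.1 to 793.6 CPM with FICZ, 759 to 784.3 CPM with tryptamine and 786.1 to 988.4 CPM in control. The 6 fibroblast and stellate cell markers, led by Col1a1, summed to 1300 to 1426 CPM with FICZ, 1252 to 1427 CPM with tryptamine and 967.9 to 1327 CPM in control, with none listed at 0. Of these, Col3a1 rose with FICZ in the fit without control replicate 3 (log2 0.39 ± 0.09, SE; edgeR adjusted p = 0.0454), where 0.805% of all genes passed. In that fit 2 of the 5 tested fibroblast and stellate cell markers lay above 0 with FICZ, with a median log2 change of -0.16 and a lowest of -0.75. The 4 bile duct markers, led by Krt7, summed to 931.7 to 988.4 CPM with FICZ, 897.3 to 991.7 CPM with tryptamine and 993.6 to 1392 CPM in control, with Epcam listed at 0. With FICZ, the 3 tested bile duct markers had a median log2 change of -0.20 with all 9 libraries and -0.08 without control replicate 3. The 4 tested hepatocyte and hepatoma markers had -0.38 and -0.20, and none of these genes passed. The 6 markers of blood and endothelium summed to between 2.98 and 5.95 CPM in any library, with Hbb-b1 and Cdh5 listed at 0. The part of these cell type markers in the values of the ABC transporters was not tested. In RNA from whole cultures, fewer cells of a type and less RNA per cell cannot be told apart.

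One library, control replicate 3, differed from the rest along transcript length, and most ABC transporter transcripts are long. The transcripts used for the 30 tested members had a median length of 4975 nt, against 2889 nt over all genes tested. Relative to the mean of the other 8 libraries, the members were lower in control replicate 3 by a median log2 difference of -0.52, with 28 of 30 members below 0, while the median over all genes was 0.01. The 3 members between 2000 and 3000 nt had a median difference of 0.14, against 0.12 for all 2788 genes of that length, and the 7 members between 5000 and 6000 nt had -0.96, against -0.52 for all 784 genes. Abca6 had the lowest value of any member at -2.15, followed by Abca1, with the longest transcript of the tested members, at -1.57. Abcg2 at 0.14 and Abcd4 at 0.71 were the only members above 0. The counts and medians of members against control are therefore given both with all 9 libraries and without control replicate 3. For some single members the change is given from 1 of these fits only. What set this library apart was not tested.

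**Figure D1:**
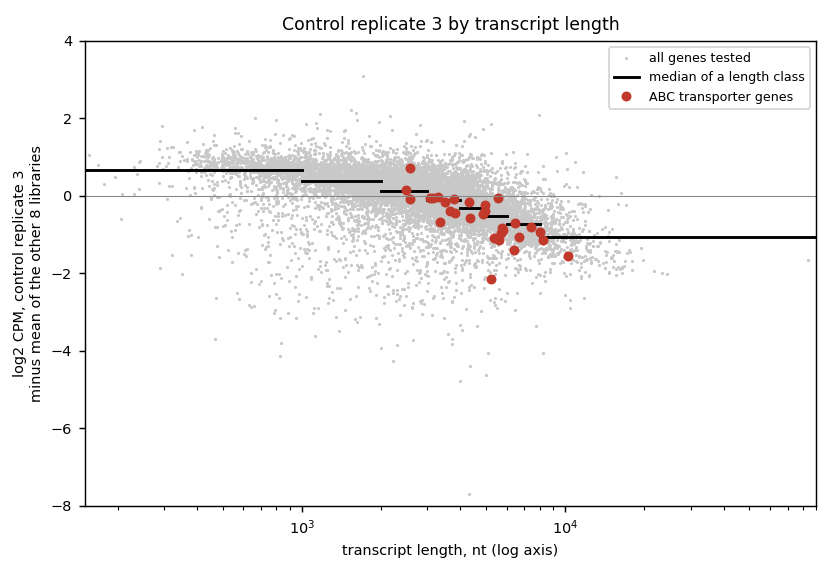
Each point is 1 gene, with the length of its transcript in nt on the x axis (log scale) and, on the y axis, the log2 CPM of control replicate 3 minus the mean of the other 8 libraries. The bars are medians of 8 length classes over all genes tested. The ABC transporter genes follow the downward course with length, and Abca6 at -2.15 lies farthest below 0.

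The family as a whole took a like share of the RNA in 8 of the 9 libraries. Per 1 kb of transcript, the members summed to 618, 615 and 635 CPM per kb with FICZ, to 626, 607 and 649 CPM per kb with tryptamine, and to 641, 635 and 472 CPM per kb in control, the last being control replicate 3. Abce1 and the 3 genes of subfamily F, which work in translation, made up 43.8 to 45.1% of that sum in the 8 libraries and 50.8% in control replicate 3.

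Abce1, which splits ribosomes for recycling, had the highest level of the family at 122.3 ± 6.49 CPM per kb (SD over the 8 libraries other than control replicate 3). Abcf1, which acts in translation initiation, followed at 86.3 ± 3.26 CPM per kb, below Abce1 and above the next gene in each of the 8 libraries. Abcc5, an exporter of cyclic nucleotides, at 53.6 ± 2.20 CPM per kb, and Abcf2 at 50.4 ± 2.11 CPM per kb were not separated in every library. Abca1, which hands cholesterol and phospholipid to apolipoprotein A-I, stood at 36.2 ± 1.74 CPM per kb and was likewise not separated from Abcg2, an exporter of drugs, porphyrins and urate, at 33.2 ± 3.05 CPM per kb. The peroxisomal fatty acid transporter Abcd3 at 26.8 ± 1.53 CPM per kb and the porphyrin transporter Abcb6 at 24.7 ± 1.5 CPM per kb came next and overlapped across libraries. Exporters typical of the hepatocyte's bile face were unequal. Abcc2, the exporter of bilirubin glucuronides and other conjugates, stood at 22.3 ± 1.06 CPM per kb, whereas Abcb11, the bile salt export pump, had 2 counts in all 9 libraries, Abcb4, which brings phosphatidylcholine into bile, had 7, and both partners of the sterol exporter, Abcg5 and Abcg8, were listed at 0. Whether reads of the genes listed at 0 were counted was not tested.

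**Figure D2:**
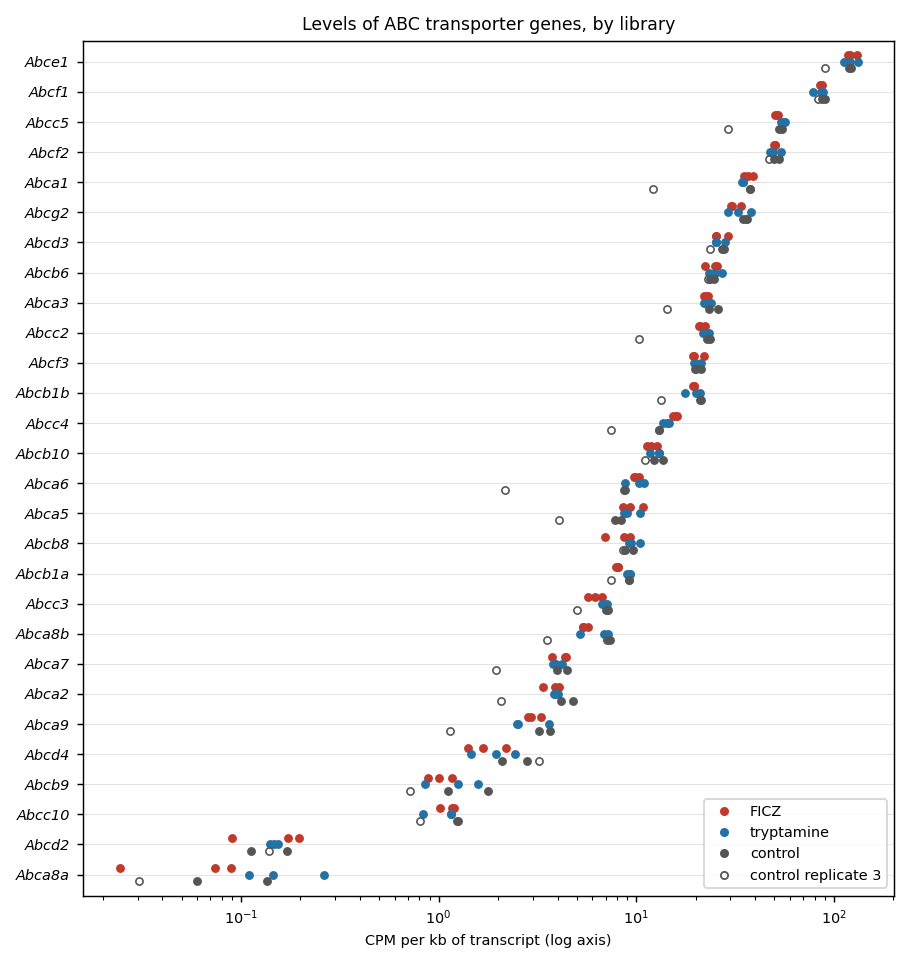
Level of the tested members reported by name in each library, in CPM per kb of transcript on a log axis, with FICZ above tryptamine above control in each line and control replicate 3 as an open circle. Members are ordered by their mean over the other 8 libraries, with Abce1 at 122.3 CPM per kb at the top, and the open circle lies to the left for most members with long transcripts.

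No ABC transporter passed the test in any comparison. In edgeR's quasi-likelihood test with Benjamini-Hochberg adjustment over all genes tested, 0 of 30 members had an adjusted p under 0.05 with FICZ against control, where 14 of 12374 genes did (0.113%). With tryptamine against control 0 of 30 members passed, and 1 gene in all did (0.00808%). With FICZ against tryptamine 0 of 30 members and 0 genes in all passed. Leaving out control replicate 3, 0 of 31 members passed in each comparison, against 0.805% of 12540 genes with FICZ, 0.199% with tryptamine and 0.136% between the treatments. DESeq2's Wald test and limma-voom with sample quality weights also called 0 members in each comparison.

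At an unadjusted p under 0.05, 2 of 30 members were higher with FICZ than in control (Abcc4 and Abca5), against 3.52% of all genes, and 1 was lower (Abcd4), against 4.6%. Tryptamine against control had 0 members higher, against 2.18% of all genes, and 0 lower, against 2.97%. FICZ against tryptamine had 0 members higher, against 0.703% of all genes, and 1 lower (Abca8a), against 1.03%. Without control replicate 3, FICZ against control had 2 of 31 members higher (Abcc4 and Abca5), against 5.12% of all genes, and 2 lower (Abca8b and Abca2), against 4.85%. In the same fit tryptamine against control had 0 higher, against 3.57%, and 1 lower (Abca1), against 3%, and FICZ against tryptamine had 1 higher (Abcc4), against 3.01%, and 3 lower (Abca8a, Abcb1a and Abca8b), against 2.96%. With 30 members, each of these counts lies within a few genes of the share of all genes.

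The median log2 fold change of the 30 members was 0.03 with FICZ and 0.09 with tryptamine, against -0.01 and 0.00 over all genes tested. Without control replicate 3 the medians were -0.06 and -0.05 over 31 members. The direction of many single members rested on that library. With FICZ 20 of 30 members lay above 0 with all 9 libraries, against 49.1% of all genes. Of these 20, 12 lay below 0 without control replicate 3. With tryptamine 24 of 30 lay above 0, against 50.5% of all genes, and 13 of these lay below 0 without it. Without control replicate 3, 9 of 31 members lay above 0 with FICZ and 11 of 31 with tryptamine, against 50% and 49.8% of all genes. Across members, the FICZ fold change had a Spearman correlation of 0.58 with transcript length over 30 members with all 9 libraries and 0.11 over 31 members without control replicate 3, a description over genes that share the same libraries. The 95% interval lay inside a 1.5-fold change in either direction for 15 of 30 members with FICZ and for 13 of 30 with tryptamine with all 9 libraries. Without control replicate 3 it did so for 24 of 31 members with FICZ and for 25 of 31 with tryptamine.

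**Figure D3:**
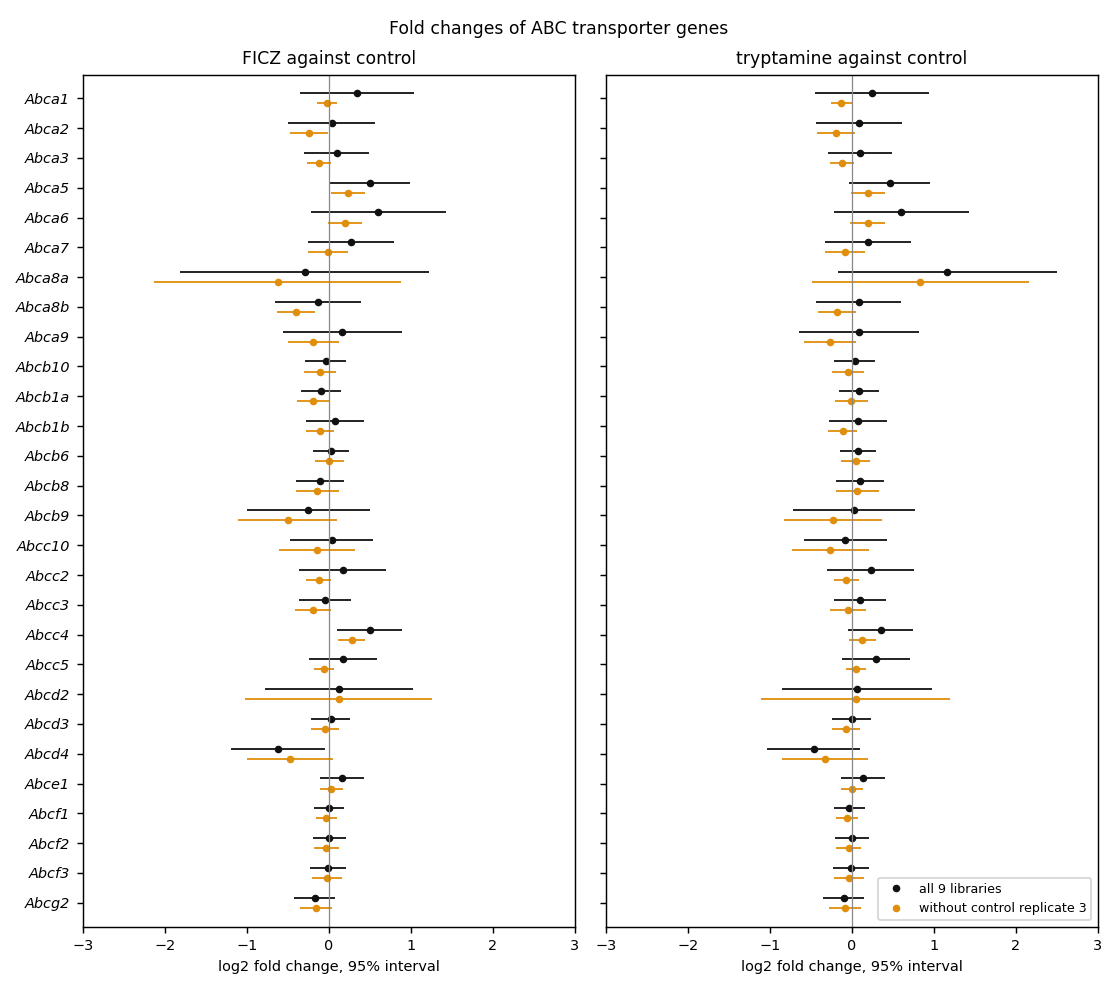
Log2 fold change (x axis) with its 95% interval for the tested members reported by name, from the fit to all 9 libraries (black) and from the fit without control replicate 3 (orange), with FICZ against control on the left and tryptamine against control on the right. The FICZ intervals of Abcc4 and Abca5 lie above 0 in both fits, and the orange intervals are narrower for most members.

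Abcc4, the exporter of cyclic AMP, bile acid conjugates and nucleotide analogs on the blood side of hepatocytes, was the 1 tested member of 30 in which the 3 groups were fully separated, which 107 of all 12374 genes were in some order (0.865%). Its promoter window from RefSeq (GRCm38.p6, chr14:118706170-118706469, minus strand, from 250 bases before to 50 after the annotated start, which makes 300 bases) is shown because it was the only one of 45 member windows, from 38 members with an entry, to hold the letters TNGCGTG, the longer form of the AhR response element. The 5 letters of its core, GCGTG, are in capitals, here as CACGC since both occurrences lie on the opposite strand.
Abcc4: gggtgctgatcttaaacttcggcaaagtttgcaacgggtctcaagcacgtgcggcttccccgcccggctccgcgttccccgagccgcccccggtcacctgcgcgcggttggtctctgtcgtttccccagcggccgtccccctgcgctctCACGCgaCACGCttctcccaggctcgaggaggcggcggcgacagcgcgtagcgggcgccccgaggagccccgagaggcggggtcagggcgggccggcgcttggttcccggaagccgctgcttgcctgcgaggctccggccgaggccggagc
Both strands were searched for GCGTG, for TNGCGTG, which contains it, and for TGACNNNGC, the core of the antioxidant response element. Of 32851 windows in the table, 32.39% held GCGTG, 5.07% held TNGCGTG and 12.39% held TGACNNNGC. Of the 45 member windows, 16 held GCGTG, 1 held TNGCGTG and 7 held TGACNNNGC. Counted by gene, these were 16, 1 and 5 of the 38 members with a window. The 5 with TGACNNNGC were Abca8b, Abcb1a, Abcc10, Abcc2 and Abcc4. A second Abcc4 window, at another annotated start, held TGACNNNGC and no GCGTG. A match describes letters and not a bound site.

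Abcc4 stood at 92.1, 88.2 and 91.5 CPM in the FICZ libraries, at 82.4, 78.4 and 84.4 CPM in the tryptamine libraries, and at 74.8, 74.5 and 42.7 CPM in the control libraries. Every FICZ library lay above every tryptamine library, and every tryptamine library above every control library, with or without control replicate 3. With all 9 libraries the log2 change with FICZ was 0.50 ± 0.18 (SE, 95% interval 0.10 to 0.90), a 1.41-fold difference (edgeR adjusted p = 0.601). Without control replicate 3 it was 0.28 ± 0.08 (SE, 95% interval 0.11 to 0.44), a 1.21-fold difference (edgeR adjusted p = 0.129). Over 20 alternative settings the change stayed between 0.27 and 0.63, with adjusted p-values from 0.0928 to 0.834. The tryptamine change was 0.35 ± 0.18 (SE) with all 9 libraries and 0.13 ± 0.08 (SE) without control replicate 3.

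Such separation of the libraries of a pair of groups was not rare in these data. With FICZ against control, 3 members lay wholly above control (Abcc4, Abca5 and Abca6), against 8.21% of all genes, and 1 wholly below (Abcg2), against 7.41%. With tryptamine against control 2 members lay wholly above (Abcc4 and Abca5), against 5.2% of all genes, and 0 wholly below, against 4.87%. Without control replicate 3, 3 of 30 members lay wholly above and 10 wholly below with FICZ, against 13.9% and 14.1% of all genes. With tryptamine 2 lay wholly above and 4 wholly below, against 10.2% and 9.84%. The 10 of 30 members below with FICZ made a larger share than over all genes, a description over genes that share the same libraries. What lies behind it was not tested. The 10 members below with FICZ were Abca2, Abca3, Abca8b, Abcb1a, Abcb1b, Abcc10, Abcc2, Abcc3, Abcc5 and Abcg2.

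The other tested members of subfamily C, the multidrug resistance proteins, lay near or below control replicates 1 and 2. Abcc5 had 301, 304 and 292 CPM with FICZ, 329, 316 and 326 CPM with tryptamine, and 318, 306 and 169.5 CPM in control. The FICZ libraries lay below all tryptamine libraries and below control replicates 1 and 2, and control replicate 3 lay far below all others. The FICZ change was 0.18 ± 0.19 (SE) with all 9 libraries and -0.06 ± 0.06 (SE) without control replicate 3. Abcc3, which moves glucuronides from hepatocytes into blood, had 28.3, 33.4 and 30.9 CPM with FICZ, 34.1, 33.3 and 35.5 CPM with tryptamine, and 35.6, 35.1 and 25.1 CPM in control. Its FICZ libraries lay below control replicates 1 and 2 and above control replicate 3. Abcc2 ranged from 112 to 121 CPM with FICZ and from 118 to 126 CPM with tryptamine, and had 128, 124 and 55.8 CPM in control. Abcc10, an exporter of lipophilic anions, stayed between 3.92 and 6.12 CPM in all libraries. With FICZ and without control replicate 3, Abcc2, Abcc3 and Abcc10 had log2 changes of -0.13, -0.19 and -0.14.

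Abcg2 was the tested member of subfamily G, whose proteins work as pairs. Its RefSeq windows are 3, of which 1 (GRCm38.p6, chr6:58640296-58640595, plus strand) held GCGTG, in capitals, and none held TNGCGTG or TGACNNNGC. It is shown because ABCG2 is the family's known AhR-responsive gene in human cells.
Abcg2: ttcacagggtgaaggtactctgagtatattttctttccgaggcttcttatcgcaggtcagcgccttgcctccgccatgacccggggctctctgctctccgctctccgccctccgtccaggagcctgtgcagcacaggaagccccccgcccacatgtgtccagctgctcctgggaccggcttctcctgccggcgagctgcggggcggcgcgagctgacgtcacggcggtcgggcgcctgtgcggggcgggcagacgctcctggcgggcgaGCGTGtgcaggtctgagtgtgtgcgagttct
Abcg2 stood at 76.1, 75.7 and 85.0 CPM in the FICZ libraries, at 81.8, 72.8 and 94.7 CPM in the tryptamine libraries, and at 86.6, 89.7 and 90.9 CPM in the control libraries. All FICZ libraries lay below all control libraries, while the tryptamine libraries spanned both groups. Its transcript of 2491 nt is short for the family, and control replicate 3 lay near the other controls here. The log2 change with FICZ was -0.17 ± 0.11 (SE, 95% interval -0.42 to 0.08; edgeR adjusted p = 0.604) and -0.16 ± 0.09 (SE, 95% interval -0.35 to 0.04; edgeR adjusted p = 0.618) without control replicate 3. Both upper bounds lie well under a 1.5-fold increase. The tryptamine change was -0.10 ± 0.11 (SE) with all 9 libraries, and FICZ against tryptamine was -0.08 ± 0.11 (SE).

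**Figure D4:**
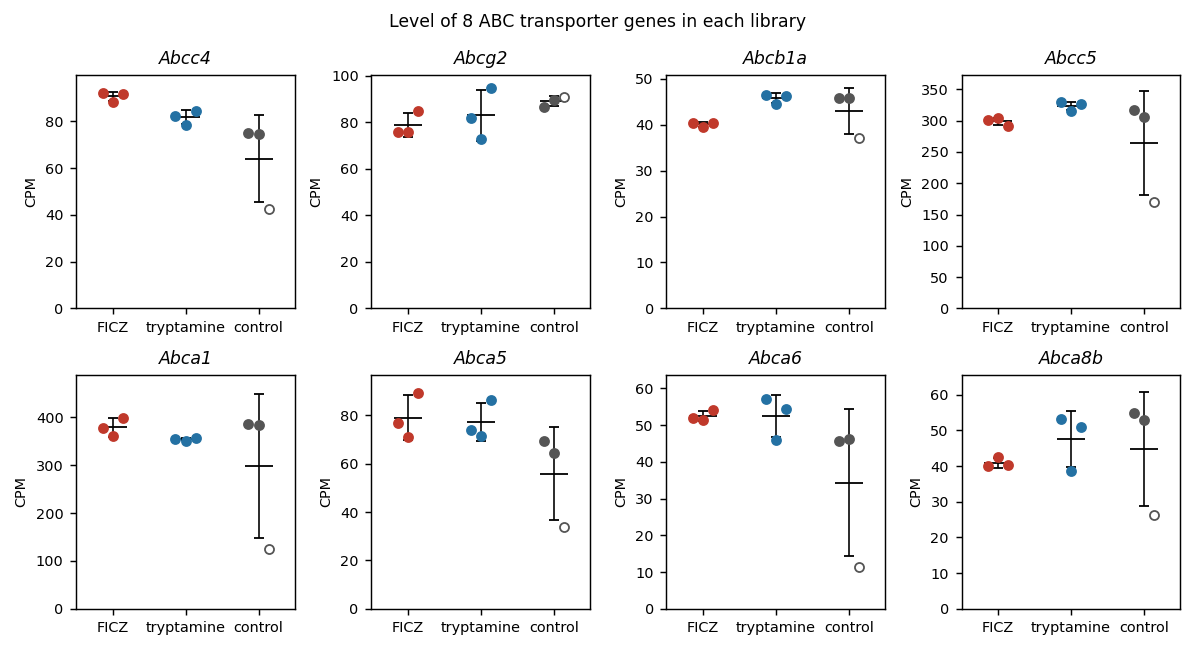
CPM in each library (points) for 8 members, with FICZ left of tryptamine left of control. Horizontal bars are group means, error bars are SD (n = 3), and the open circle is control replicate 3. Abcc4 steps down over the groups, and Abcg2 has all FICZ libraries below all controls. Abca1, Abca5, Abca6, Abca8b, Abcb1a, Abcc4 and Abcc5 have their lowest value in control replicate 3.

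P-glycoprotein, the exporter of many hydrophobic drugs, is encoded in the mouse by the related genes Abcb1a and Abcb1b. Whether reads were shared between them was not tested. Abcb1a had 40.3, 39.5 and 40.4 CPM with FICZ, 46.5, 44.6 and 46.3 CPM with tryptamine, and 45.9, 45.7 and 37.1 CPM in control. The FICZ libraries lay below all tryptamine libraries and below control replicates 1 and 2. FICZ against tryptamine was -0.19 ± 0.11 (SE, 95% interval -0.44 to 0.05; edgeR adjusted p = 1) with all 9 libraries, and -0.19 ± 0.09 (SE; edgeR adjusted p = 0.77) without control replicate 3. Per length, Abcb1b was higher than Abcb1a in each library. Abcb1b ranged from 83.9 to 85.7 CPM with FICZ, from 76.9 to 91.0 CPM with tryptamine and from 58.4 to 92.6 CPM in control, with FICZ changes of 0.07 ± 0.16 (SE) and, without control replicate 3, -0.11 ± 0.08 (SE). The gene Rundc3b overlaps Abcb1a in RefSeq, and whether the authors' counting used strand is not given in the sources used here.

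Mitochondrial and lysosomal members of subfamily B overlapped with control. Abcb6 had 97.3, 94.1 and 83.9 CPM with FICZ, 94.1, 102 and 88.6 CPM with tryptamine, and 93.9, 89.3 and 87.0 CPM in control. These groups overlap, and the FICZ change was 0.03 ± 0.10 (SE). Abcb8, a transporter of the inner mitochondrial membrane whose locus overlaps Cdk5, had 26.7, 28.8 and 21.4 CPM with FICZ, 28.9, 32.0 and 28.3 CPM with tryptamine, and 27.1, 29.5 and 26.4 CPM in control. FICZ replicate 3 was its lowest library, and the groups overlap. Abcb10, which works in the inner mitochondrial membrane of heme-making cells, ranged from 47.5 to 58.7 CPM, and Abcb9, a lysosomal peptide transporter, from 2.39 to 5.92 CPM over all libraries.

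Subfamily A, with 9 tested members and long transcripts throughout, had 7 members above 0 with FICZ with all 9 libraries and 2 without control replicate 3. Abca6, whose substrate is not settled, had 51.9, 51.3 and 54.1 CPM with FICZ, 57.1, 46.0 and 54.3 CPM with tryptamine, and 45.7, 46.1 and 11.3 CPM in control. The FICZ libraries lay above all controls, tryptamine replicate 2 lay between control replicates 1 and 2, and control replicate 3 held 0.223 of the mean of the other 8 libraries. Its FICZ change was 0.60 ± 0.37 (SE; edgeR adjusted p = 0.604) with all 9 libraries and 0.19 ± 0.10 (SE; edgeR adjusted p = 0.546) without control replicate 3. Abca5, a lysosomal member of the same gene cluster, had 76.6, 71.0 and 89.3 CPM with FICZ, 74.0, 71.5 and 86.2 CPM with tryptamine, and 69.5, 64.5 and 33.7 CPM in control. Every treated library lay above every control library. The change was 0.50 ± 0.22 (SE) with FICZ and 0.46 ± 0.22 (SE) with tryptamine, and without control replicate 3 it was 0.24 ± 0.10 (SE; edgeR adjusted p = 0.409) and 0.20 ± 0.10 (SE; edgeR adjusted p = 0.774).

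Abca1 had 378, 361 and 399 CPM with FICZ, 355, 352 and 357 CPM with tryptamine, and 387, 385 and 125 CPM in control. Control replicates 1 and 2 lay inside the range of the FICZ libraries and above all tryptamine libraries. The FICZ change was 0.34 ± 0.31 (SE) with all 9 libraries and -0.02 ± 0.06 (SE) without control replicate 3, and the tryptamine change was 0.25 ± 0.31 (SE) and -0.13 ± 0.06 (SE; edgeR adjusted p = 0.757).

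Abca8b, whose human counterpart is linked to HDL cholesterol, had 40.1, 42.5 and 40.2 CPM with FICZ, 53.3, 38.6 and 51.0 CPM with tryptamine, and 55.0, 52.9 and 26.4 CPM in control. The FICZ libraries lay below control replicates 1 and 2 and above control replicate 3. Its FICZ change was -0.13 ± 0.24 (SE) with all 9 libraries and -0.40 ± 0.11 (SE, 95% interval -0.63 to -0.17; edgeR adjusted p = 0.122) without control replicate 3. The smallest adjusted p of any member in any of the 20 alternatives, 0.0643, was that of Abca8b with offsets for transcript length and without control replicate 3. Abca5, Abca6, Abca8a, Abca8b and Abca9 are close relatives, and reads shared between them are uncertain.

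Abca8a, with 77 counts in all, had 0.50, 0.42 and 0.14 CPM with FICZ, 0.82, 0.62 and 1.48 CPM with tryptamine, and 0.34, 0.76 and 0.17 CPM in control. All FICZ libraries lay below all tryptamine libraries, at 16 counts with FICZ, 43 with tryptamine and 18 in control, and the log2 difference of FICZ against tryptamine was -1.46 ± 0.62 (SE; edgeR adjusted p = 1). Abca9 had 21.1, 18.1 and 18.8 CPM with FICZ, 15.8, 16.1 and 23.0 CPM with tryptamine, and 23.5, 20.6 and 7.34 CPM in control. Tryptamine replicate 3 lay near control replicate 1, and the groups overlap. Abca2, a lipid transporter of late endosomes and lysosomes, had 31.3, 32.6 and 27.2 CPM with FICZ, 31.3, 31.0 and 32.5 CPM with tryptamine, and 38.5, 33.6 and 16.6 CPM in control. Abca3, known for loading surfactant lipids in lung and overlapped by Abca17, had 143, 147.5 and 149 CPM with FICZ, 142, 144 and 154 CPM with tryptamine, and 168, 151 and 92.2 CPM in control. In both genes control replicate 1 was the highest library and control replicate 3 the lowest. Abca7, a phospholipid transporter, ranged from 25.2 to 29.6 CPM with FICZ, from 25.5 to 28.1 CPM with tryptamine and from 13.1 to 29.8 CPM in control.

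Subfamily D imports very long and branched fatty acids into peroxisomes, apart from Abcd4, which serves cobalamin transport in lysosomes. Abcd3 had 88.6, 88.8 and 101.8 CPM with FICZ, 88.6, 88.8 and 97.9 CPM with tryptamine, and 95.3, 97.3 and 82.6 CPM in control. The groups overlap, with a FICZ change of 0.02 ± 0.11 (SE) with all 9 libraries and of -0.07 to 0.07 over 20 alternative settings. Abcd4 had 3.63, 4.35 and 5.67 CPM with FICZ, 5.03, 3.78 and 6.32 CPM with tryptamine, and 7.24, 5.43 and 8.36 CPM in control. All treated libraries lay below control replicates 1 and 3, while control replicate 2 lay among them. Abcd4 was the 1 tested member with a higher level in control replicate 3 than in every other library. The FICZ change was -0.62 ± 0.26 (SE, 95% interval -1.19 to -0.05; edgeR adjusted p = 0.601), and -0.48 ± 0.26 (SE; edgeR adjusted p = 0.563) without control replicate 3. Abcd2, with 106 counts in all, ranged from 0.50 to 1.09 CPM over all libraries.

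The members that act on ribosomes overlapped between the groups. Abce1 had 463, 453 and 499.9 CPM with FICZ, 459, 429 and 503 CPM with tryptamine, and 469, 455 and 343 CPM in control. Apart from control replicate 3 the groups overlap, and the FICZ change was 0.16 ± 0.12 (SE) with it and 0.03 ± 0.07 (SE) without it. Abcf1 had 276, 272 and 269.5 CPM with FICZ, 279, 273 and 249 CPM with tryptamine, and 273, 283 and 261 CPM in control. Abcf2 had 128, 129 and 129.7 CPM with FICZ, 126, 122 and 139 CPM with tryptamine, and 128, 136 and 121 CPM in control. Their FICZ changes were 0.00 ± 0.08 (SE) and 0.00 ± 0.09 (SE) with all 9 libraries, and control replicate 3 lay close to the other controls. Without control replicate 3 the FICZ changes in subfamily F ran from -0.034 to -0.026. Over 20 alternative settings the FICZ change of Abcf1 ran from -0.07 to 0.41. Abcf3 ranged from 64.0 to 72.1 CPM over all libraries, and Abce1 overlaps Anapc10.

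FICZ and tryptamine were given at different doses, 10 nM and 50 uM, so their values stand side by side without a statement on either compound's strength. Between them, 2 members had all FICZ libraries above all tryptamine libraries (Abca1 and Abcc4), against 5.46% of all genes, and 3 had them below (Abca8a, Abcb1a and Abcc5), against 5.85%. The log2 differences were 0.10 ± 0.31 (SE) for Abca1, 0.15 ± 0.18 (SE) for Abcc4 and -0.11 ± 0.19 (SE) for Abcc5 with all 9 libraries. Without control replicate 3, which holds neither treatment, the Abcc4 difference was 0.15 ± 0.07 (SE, 95% interval 0.00 to 0.30; edgeR adjusted p = 0.811). The interval lay inside a 1.5-fold difference for 19 of 30 members with all 9 libraries and for 26 of 31 without control replicate 3, which bounds the difference and does not show that the treatments act alike.

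The authors' deposited table, which tests each transcript with all control libraries included, called 4 of the 30 members with FICZ at an adjusted p under 0.05 for the 1 transcript used per gene here, against 7.55% of the 12374 genes counted in the same way. Per the authors' deposited table, these were Abca6 (log2 0.59, adjusted p = 0.00429), Abcc4 (log2 0.47, adjusted p = 0.0103), Abca5 (log2 0.47, adjusted p = 0.0164) and Abca1 (log2 0.32, adjusted p = 0.0456). For tryptamine the authors' deposited table called 1 of 30 by the transcript used, Abca6 (log2 0.59, adjusted p = 0.0316), against 2.23% of all genes, and for FICZ against tryptamine it called 0 of 30, against 0.178%. These 4 genes have transcripts over 5000 nt and had their lowest level in control replicate 3. Among all transcripts with a mean of at least 100 counts, which share reads and are not separate measurements, 8 of 9 for Abcc4, 7 of 9 for Abca5, 2 of 5 for Abca1, 2 of 17 for Abcc5, 1 of 5 for Abca6 and 1 of 6 for Abcf1 had an adjusted p under 0.05 with FICZ in the authors' deposited table. With tryptamine these were 4 of 9 for Abca5, with a smallest adjusted p of 0.0201 in the authors' deposited table, and 1 of 5 for Abca6. With FICZ, the authors' log2 values over such transcripts lay above 0 throughout for Abcc4, Abca5 and Abca6. They ran from -0.03 to 0.45 for Abca1, -0.21 to 0.49 for Abcc5 and -0.55 to 0.37 for Abcf1. These ranges cover called and other transcripts alike, so the counts for Abcc5 and Abcf1 do not tell a direction. For Abca1 the called transcript used here was higher with FICZ (log2 0.32).

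The 13 members with few counts were Abca4, Abca12, Abca14, Abca15, Abca16, Abca17, Abcb4, Abcb5, Abcb11, Abcc9, Abcc12, Abcg1 and Abcg4. Abcg4 had the most, with 25 counts with FICZ, 11 with tryptamine and 16 in control, and it passed the filter in the fit without control replicate 3 and not with all 9 libraries. Abca12, a lipid transporter known from the skin, had 10, 7 and 0 counts with FICZ, 4, 0 and 6 with tryptamine and 0 in each control library, where the depth allows up to 3 counts. The 7 members listed at 0 were Abca13, Abcc1, Abcc6, Abcc8, Abcg3, Abcg5 and Abcg8. If reads of these genes were counted, a count of 0 over the 9 libraries allows up to 0.0231 CPM for counting error alone. Whether they were counted was not tested. Abcc1, the broadly expressed exporter of glutathione conjugates, was listed at 0 in all 22 of its transcripts.

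Genes that work with the transporters were examined as lists. Over all genes, 0.113% passed with FICZ and 0.00808% with tryptamine with all 9 libraries, in either direction. Without control replicate 3 these shares were 0.805% and 0.199%. Of 15 tested regulators of ABC transporter genes, 0 passed with all 9 libraries, and Nfe2l2, which encodes NRF2, was the 1 that rose with FICZ without control replicate 3. Nfe2l2 stood at 288, 291 and 284 CPM with FICZ, 262, 253 and 266 CPM with tryptamine, and 226, 209.5 and 204 CPM in control, with a log2 change of 0.40 ± 0.06 (SE; edgeR adjusted p = 0.000476) in that fit. All FICZ libraries lay above all tryptamine libraries and these above all controls. Of 9 tested AhR target genes, 7 rose with FICZ and 1 with tryptamine with all 9 libraries. Without control replicate 3, 9 rose with FICZ and 7 with tryptamine. Between the treatments, 0 of 9 passed with all 9 libraries. Without control replicate 3, 5 were higher with FICZ than with tryptamine, against 0.136% of all genes.

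Among 18 heme and iron-sulfur genes that supply or use the substrates of the mitochondrial subfamily B members, Cpox rose with FICZ with all 9 libraries, and its values were 269.7, 237 and 250.4 CPM with FICZ, 180.3, 191 and 189 CPM with tryptamine, and 136, 139.8 and 102 CPM in control (log2 1.00 ± 0.12, SE; edgeR adjusted p = 0.0147). Cpox, coproporphyrinogen oxidase, also rose with tryptamine without control replicate 3 (log2 0.44 ± 0.07, SE). Alad, an earlier enzyme of heme synthesis, fell with FICZ without control replicate 3 (log2 -0.38 ± 0.06, SE), with 290.2, 289.9 and 277.5 CPM with FICZ, against 388, 357 and 597 CPM in control. The porphyrin transporter Abcb6 and the mitochondrial Abcb8 and Abcb10 did not pass beside them. Between the treatments without control replicate 3, 1 of the 18 genes was higher with FICZ and 1 lower, against 0.136% of all genes. Of 8 tested uptake and other carriers of the hepatocyte membrane, 0 passed with all 9 libraries, and the prostaglandin carrier Slco2a1 fell with FICZ without control replicate 3 (log2 -0.38 ± 0.08, SE). None of 9 cholesterol efflux and uptake partners, 13 peroxisome partners and 13 translation partners passed in any comparison with edgeR, with or without control replicate 3. Tap1 and Tap2, antigen peptide transporters of the superfamily under other symbols, did not pass either, and Cftr had 9 counts.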

How the data were processed

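The authors deposited 1 table of 189660 transcripts for each of the 3 pairs of groups. Per the file headers, these hold raw read counts for each library without normalization, and the authors' p-values, adjusted p-values and log2 fold changes for each transcript, made with DESeq per the submitters' processing notes, which give no version. No aligner, counter, build or annotation is named, so these were not given in the sources used here. Columns were assigned to libraries by the pair of groups each table compares and the side and number in the column headers, matched to the sample titles.

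For each gene the transcript with the highest mean count over the 9 libraries was used, since reads appear to be counted for every transcript they overlap (summing all of them raised the totals 5.37 to 5.62 times). Transcripts without a gene ID, with 3.56 to 4.23% of the counts, were left out. All 9 libraries were fitted together with edgeR 4.0.16 (R 4.3.3) after TMM scaling and filterByExpr, with group as the only term, the quasi-likelihood test and Benjamini-Hochberg adjustment over all genes tested. A gene is said to have risen, fallen or passed at an adjusted p under 0.05. CPM are edgeR's counts scaled to effective library size, the SE of a log2 fold change is its size over √F, and intervals are at 95%. Levels between genes are CPM per kb of the transcript used. Nothing in the labels tells whether libraries of 1 group are separate cultures, so p-values measure the spread between these libraries, which may be technical. Limits on counts of 0 rest on 3 counts and cover counting error only, as no molecular identifiers are mentioned. The fit was tested on simulated counts without a shift of any library along transcript length. How it calls genes under such a shift was not tested.

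The members, the gene lists and the use of fits with and without control replicate 3 were chosen with earlier results of these data known. Members given in every library are Abcc4 and Abcg2, the 5 with the smallest p in each comparison and fit, and the 8 with the highest count per length. Alternatives were DESeq2 1.42.0 size factors and Wald test, limma 3.58.1 voom with sample quality weights, other filters, the 6 libraries of a pair, a replicate block, length offsets, sums over transcripts, the transcript with the highest count per length, and leaving out each library. Length offsets without control replicate 3 were added after seeing the data. The values of 2 tested members are not reported here, although both entered every fit and count. Promoter windows are from RefSeq (GRCm38.p6), matched by symbol.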

Additional observations from a re-analysis of the deposited data

How the results depend on the processing

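The count of ABC transporters that passed was 0 in every one of 20 alternatives for all 3 comparisons, and with no member called in any fit, named members' fold changes changed sign in 48 of 417, 46 of 418 and 60 of 417 values for FICZ against control, tryptamine against control and FICZ against tryptamine. Over all genes, with 14, 1 and 0 calls in these comparisons, DESeq2's Wald test called 54, 12 and 10, limma-voom with sample quality weights 119, 19 and 18, length offsets 51, 6 and 5, and length offsets without control replicate 3 (chosen after seeing the data) 117, 28 and 21. Without a filter on low counts 26 and 2 genes passed with FICZ and tryptamine against control, and with sums over transcripts 4 and 2. The 6 libraries of the pair gave 2 calls with FICZ against control and 17 between the treatments, and the transcript with the highest count per length gave 4 with FICZ. Leaving out 1 library gave 4 to 101, 1 to 25 and 0 to 17 calls, the highest each time without control replicate 3. The replicate block gave 4 calls and a median of 0.0559 with FICZ and changed no call of a member. The numbers were not taken as pairs, since the labels do not say that a number marks a shared day. Deviations of same-numbered libraries correlated at -0.0582 to 0.116, and those of differently numbered libraries at -0.122 to 0.102.

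The members' median log2 fold change against control, 0.0331 with FICZ and 0.0913 with tryptamine, was -0.0818 and -0.0370 with quality weights, -0.0193 and -0.0004 with length offsets, and -0.0679 and -0.0463 with length offsets without control replicate 3. Leaving out 1 library gave -0.0612 to 0.1403 and -0.0471 to 0.1819, the lowest without control replicate 3. Between the treatments it was -0.0022, with -0.0401 for the transcript with the highest count per length and -0.0360 to 0.0295 when leaving out 1 library. The cause of these shifts was not tested. Depth limits the members under about 100 counts in all, among them Abca8a.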
